A study of Mus musculus with 2 samples.

Results

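The mitochondrial genome of the mouse carries 13 protein-coding genes, and 10 of them are described here: mt-Nd1, mt-Nd2, mt-Nd3, mt-Nd4 and mt-Nd5 of complex I, mt-Cytb of complex III, mt-Co1, mt-Co2 and mt-Co3 of complex IV, and mt-Atp6 of complex V. They were taken by name, with no threshold on any value, from the 32285 genes of the deposited expression table, and all 10 were detected in both libraries. The cells were live leukocytes, sorted on the surface marker CD45 from colons dissociated with a lamina propria kit. The donors were female mice aged 9 months, either 5XFAD animals or their wild-type (WT) littermates. 5XFAD mice are a transgenic model of familial Alzheimer disease, with transgenes expressed from the Thy1 promoter, which is directed at neurons. Colon leukocytes are thus not the cells that the transgenes were designed for. Cells of 3 mice were pooled for each genotype and made into 1 library each by droplet-based 3′ single-cell RNA sequencing, so every difference between genotypes below is a difference between 2 libraries. It has no replicate check and no test, and all intervals are 95% intervals that cover counting error only.

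The proteins encoded in mitochondria form the membrane core of the respiratory chain, in which complexes I, III and IV pass electrons from NADH to oxygen and pump protons, and complex V uses the proton gradient to make ATP. Most subunits of the same complexes come from nuclear genes. Mitochondrial genes are transcribed as long RNAs from each strand. These are cut, largely at the tRNAs between the genes, into separate messages, most of which then receive a short poly(A) tail. In lymphocytes the chain supports activation and long-lived states. The share of mitochondrial RNA in a cell is also a routine measure of cell quality in single-cell work.

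Both libraries held 3443 cells, with 18604847 unique molecular identifiers (UMIs, which count captured RNA molecules) for 5XFAD and 17939499 for WT. The median cell had 5209 and 4938 UMIs, and 3 cell barcodes occurred in both libraries. No 5XFAD cell but 106 WT cells had 2500 genes or more, and every deposited cell lay below 10% mitochondrial UMIs. Cells were grouped in the 17 clusters deposited by the authors, 0 to 16. Clusters 0 to 5 were B cell-like by their markers, with 2364 and 2538 cells. Cluster 10 was T cell-like, with cluster 8 regulatory T cell-like and cluster 13 gamma delta T cell-like. Of the innate lymphoid clusters, 9 was ILC2-like, 16 ILC3-like and 12 NK or ILC1-like. The remaining 6, 7, 11, 14 and 15 are given by number with their leading genes. A minimum of 6 of 8 markers in at least 10% of cells was applied to the B cell-like name only. Cluster 12 had 5 of 8 NK or ILC1 markers at that level, and cluster 14 had 8 of 8 T cell markers. Cluster 16 had only 17 WT cells and is left out of ranges over clusters, which therefore cover 16 clusters.

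The genes lie close together on the mitochondrial chromosome, and some neighbours share bases. Among these, mt-Atp6 and mt-Co3 share 1 base, and mt-Nd5 overlaps mt-Nd6, which lies on the opposite strand. The stretches shared within 2 further pairs are shown because the assay reads RNA from its poly(A) end, while the messages of mt-Atp8 with mt-Atp6, and of mt-Nd4l with mt-Nd4, are known to be carried on a common RNA. Each is printed 5′ to 3′ on the plus strand (GRCm38, GENCODE vM21 transcripts), with the shared bases in capitals. The first covers chrM:7915-7981, where 43 bases at 7927 to 7969 belong to both mt-Atp8 and mt-Atp6. The second covers chrM:10155-10185, where 7 bases at 10167 to 10173 belong to both mt-Nd4l and mt-Nd4.
mt-Atp8 and mt-Atp6: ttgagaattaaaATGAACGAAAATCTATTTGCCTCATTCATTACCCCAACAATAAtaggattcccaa
mt-Nd4l and mt-Nd4: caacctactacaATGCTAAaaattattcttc
The start of the downstream gene opens each capital stretch and the stop codon of the upstream gene ends it. How the counting treated a read in the shared bases is not given in the sources used here.

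Shown next are the last 30 bases of 4 described genes, since these ends lie beside the tails that the assay primes from, with the annotated stop in capitals.
mt-Nd3: acacaaaaaggattagaatgaacagagTAA
mt-Co3: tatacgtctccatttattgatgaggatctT
mt-Nd4: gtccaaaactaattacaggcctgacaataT
mt-Cytb: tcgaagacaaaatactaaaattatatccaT
mt-Nd3 (chrM:9459-9806, 348 bases) ends in a whole TAA stop codon. The messages of mt-Co3 (chrM:8607-9390, 784 bases), mt-Nd4 (chrM:10167-11544, 1378 bases) and mt-Cytb (chrM:14145-15288, 1144 bases) end in a lone T, which the poly(A) tail is known to complete to a stop codon. All 10 genes are read from the plus strand and have no introns. Of the other 3 mitochondrial genes, mt-Atp8 and mt-Nd4l are also on the plus strand and mt-Nd6, a subunit of complex I, is read from the minus strand.

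Together the 10 genes held 890000 UMIs in the 5XFAD library and 883315 in the WT library, or 97.8% and 98.6% of all mitochondrially encoded UMIs. Their summed level was 478 UMIs per 10,000 in 5XFAD (exact Poisson interval 477 to 479) and 492 in WT (491 to 493). This is a log2 ratio of 5XFAD over WT of -0.04 (-0.05 to -0.04, exact conditional binomial). The sign of so small a difference depends on the scaling. With median-of-ratios size factors, which set the median gene to no change and move all genes up by 0.10, the summed ratio was 0.06. Without the cells under 1% or at 8% or more mitochondrial UMIs it was -0.02. That removal selects on nearly the same UMIs that are compared, so it is no independent check.

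Per kilobase of annotated length the order of the genes was nearly the same in both libraries. mt-Atp6, the proton channel subunit of ATP synthase, stood highest with 142 UMIs per 10,000 per kilobase in 5XFAD and 146 in WT. The core subunits of cytochrome c oxidase followed, mt-Co3 with 104 and 120, mt-Co2 with 103 and 108, and mt-Co1 with 53.2 and 57.8. mt-Co3 and mt-Co2 lay closer to each other in 5XFAD than mt-Co3 did between the libraries, so their order is not separated. mt-Cytb, the electron-carrying core of complex III, had 37.4 and 33.0. Of the complex I genes mt-Nd2 had 29.1 and 27.2, mt-Nd1 27.3 and 25.9, mt-Nd4 17.5 and 18.7, and mt-Nd5 had the lowest level of the 10 with 6.25 and 5.60. mt-Nd3 was the exception to the common order. With 37.0 per kilobase it lay next to mt-Cytb in 5XFAD, and with 25.5 it lay close to mt-Nd1 and mt-Nd2 in WT. These gaps were smaller than the difference of mt-Nd3 between the libraries, so its order beside these genes is not separated. A 3′ assay counts an RNA once whatever its length, so these values understate long genes relative to short ones.

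None of the 10 genes differed 1.5-fold or more between the libraries (0 of 10), beside 16.3% of the 10922 genes that reached 50 UMIs in the 2 libraries together (4.90% higher and 11.4% lower in 5XFAD). The median log2 ratio of the 10 genes was 0.02, beside -0.10 for all genes tested. Most genes tested are far less abundant than these 10. Among the 379 genes with at least 10,000 UMIs, a count that all 10 reached, the median was 0.06. The 5th and 95th percentiles of those genes were -0.54 and 0.63. Under the median-of-ratios scaling 1 of the 10, mt-Nd3, passed 1.5-fold, beside 7.38% of all genes higher and 7.81% lower in 5XFAD.

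Complex I held the member with the largest difference. mt-Nd3, a small membrane subunit whose loop lies at the quinone-binding site, had 12.9 UMIs per 10,000 in 5XFAD (12.7 to 13.05) and 8.89 in WT (8.75 to 9.03). Its log2 ratio was 0.54 (0.51 to 0.56), the highest of the 10. mt-Nd5, at the far end of the membrane arm, had 11.4 and 10.2 UMIs per 10,000, a log2 ratio of 0.16 (0.13 to 0.19). mt-Nd2, an antiporter-like subunit of the membrane arm, had 30.2 and 28.2 (0.10, 0.08 to 0.12). mt-Nd1, which forms part of the quinone channel, had 26.1 and 24.8 (0.08, 0.06 to 0.09). By cluster, mt-Nd1 and mt-Nd2 were each higher in 5XFAD in 11 of 16 clusters and lower in 5. mt-Nd5 was higher in 14 and lower in 2. In all cells mt-Nd1, mt-Nd2, mt-Nd3 and mt-Nd5 were higher in 5XFAD under each of the 9 alternatives tried, but their sizes moved. Lowest with clusters given equal weight and highest under the median-of-ratios scaling, the ratio ran from 0.02 to 0.18 for mt-Nd1, from 0.06 to 0.20 for mt-Nd2, from 0.10 to 0.26 for mt-Nd5 and from 0.44 to 0.64 for mt-Nd3. mt-Nd4, a further proton-pumping subunit, went the other way, with 24.1 and 25.7 UMIs per 10,000, a ratio of -0.09 (-0.11 to -0.07). It was lower in 5XFAD in 16 of 16 clusters, with intervals that excluded 0 in 13. Under the median-of-ratios scaling its sign turned in all cells (0.01), and it was lower in 12 clusters.

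The genes of complex IV lay on the same side as mt-Nd4, lower in 5XFAD at the main scaling. mt-Co3, a core subunit beside the catalytic ones, had 81.4 UMIs per 10,000 in 5XFAD (81.0 to 81.8) and 94.1 in WT (93.7 to 94.6), a log2 ratio of -0.21 (-0.22 to -0.20). mt-Co1, which holds the oxygen-reducing centre, had 82.1 and 89.3 (-0.12, -0.13 to -0.11). By cluster, mt-Co3 was lower in 5XFAD in 16 of 16 clusters and mt-Co1 in 13. In all cells both were lower in 5XFAD under all 9 alternatives. Under the median-of-ratios scaling, however, the ratio of mt-Co3 was only -0.11 and that of mt-Co1 -0.02. mt-Co2, which accepts electrons from cytochrome c, had 70.6 and 73.9 and a ratio of -0.07, which became 0.04 under the median-of-ratios scaling. Complex III and complex V split again. mt-Cytb had 42.8 UMIs per 10,000 in 5XFAD and 37.7 in WT, a log2 ratio of 0.18 (0.17 to 0.20). It was higher in 5XFAD in 15 of 16 clusters, and in all cells under all 9 alternatives. mt-Atp6 had 96.7 and 99.5, a ratio of -0.04, which became 0.06 under the median-of-ratios scaling.

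**Figure D1:**
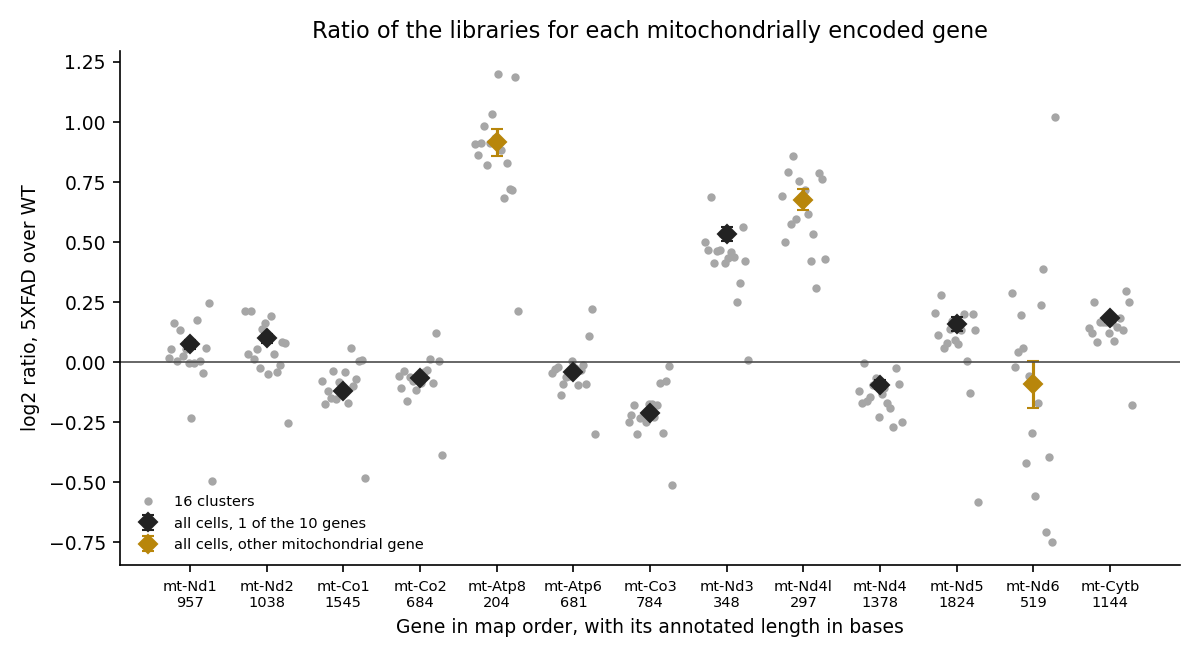
Log2 ratio of 5XFAD over WT (y axis) for the 13 mitochondrially encoded protein genes in map order (x axis, with annotated length in bases). Diamonds are all cells with their 95% counting interval, dark for the 10 genes described and yellow for the other 3; grey points are the 16 clusters. mt-Nd3 stands highest of the 10 at 0.54 and mt-Co3 lowest at -0.21, and the shortest genes mt-Atp8 and mt-Nd4l lie above mt-Nd3.

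Shares within the mitochondrial RNA do not depend on how the libraries are scaled, and they showed the same split. mt-Nd3 took 2.69% of the UMIs of the 10 genes in 5XFAD and 1.81% in WT. Across the 16 clusters its share ran from 1.80% to 2.98% in 5XFAD and from 1.24% to 2.08% in WT, and was higher in 5XFAD in 16 of 16. mt-Co3 took 17.02% and 19.1%. Its share ran from 16.5% to 17.74% in 5XFAD and from 17.76% to 19.9% in WT, and was lower in 5XFAD in 16 of 16 clusters. The 2 ranges nearly met. The gap between them was far smaller than the counting interval of a cluster, such as 17.02% to 17.97% in cluster 5 of 5XFAD. mt-Cytb took 8.95% and 7.66% and its share was higher in 5XFAD in 16 of 16 clusters. mt-Atp6 took 20.2% in both.

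In single cells the mt-Nd3 difference was seen at the median and at both quartiles. Medians over cells, each taken on its own, were 6 mt-Nd3 UMIs and 249 UMIs of the 10 genes in 5XFAD, and 4 and 240 in WT. The median share was 2.56% (quartiles 1.77% to 3.35%) in 5XFAD and 1.64% (1.01% to 2.38%) in WT, so the quartile ranges overlapped. A mt-Nd3 UMI was seen in 98.4% of 5XFAD and 94.0% of WT cells. With each cell thinned to 3000 UMIs, which left out 60 and 124 shallower cells, it was seen in 95.2% (exact interval 94.4 to 95.9) and 87.6% (86.4 to 88.7). mt-Nd5, at a like abundance, was seen in 93.9% and 92.5% of thinned cells. No cell type without mitochondria is in these data, so the background of free RNA in these shares cannot be measured here.

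By cluster, mt-Nd3 was highest in cluster 2, a B cell-like cluster led by B3gnt7, Scd1 and Trim25, with 15.97 UMIs per 10,000 in 5XFAD and 11.6 in WT. It was lowest in cluster 5, the B cell-like cluster led by the heat shock genes Hspa1a and Hspa1b and by Jun, with 7.64 and 5.56. Its log2 ratio was above 0 in 16 of 16 clusters, from 0.01 (-0.32 to 0.34) in cluster 15 to 0.69 (0.62 to 0.76) in cluster 0. Scaling by the UMIs that are not mitochondrial left it above 0 in 15 clusters and just below in the remaining 1. In cluster 0, mt-Nd3 was the 1 member of 10 past 1.5-fold, beside 22.2% of the 7474 genes tested there. In cluster 16 it was also the 1 member past 1.5-fold (0.76, from 169 and 73 UMIs), beside 24.9% of genes. In the B cell-like clusters together, mt-Nd3 had 13.6 and 9.07 UMIs per 10,000, a ratio of 0.58 (0.55 to 0.62), just short of that fold, and 0 of 10 members passed it there beside 19.6% of 9681 genes.

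The 3 remaining mitochondrial genes were measured beside these 10. mt-Atp8, a small subunit of ATP synthase, had 4.13 UMIs per 10,000 in 5XFAD and 2.19 in WT, a log2 ratio of 0.92 (0.86 to 0.97). mt-Nd4l, a small membrane subunit of complex I, had 5.82 and 3.64, a ratio of 0.68 (0.63 to 0.72). mt-Nd6 had the lowest level of the 13 genes per kilobase (1.76 and 1.88), with 0.91 and 0.97 UMIs per 10,000 from 1701 and 1748 UMIs. The interval of its log2 ratio of -0.09 included 0 (-0.19 to 0.01). The part of capture from the poly(A) end in the low level of mt-Nd6 was not tested. mt-Atp8 and mt-Nd4l thus lay past 1.5-fold, unlike all 10 of the genes described.

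The split between neighbours that share an RNA differed as well. Of the UMIs of mt-Atp8 and mt-Atp6 together, mt-Atp8 took 4.10% in 5XFAD (4.01 to 4.19) and 2.15% in WT (2.09 to 2.22). Over the 16 clusters its share was 3.09% to 4.56% in 5XFAD and 1.86% to 2.29% in WT, higher in 5XFAD in 16 of 16 and with no overlap between the libraries. Of the UMIs of mt-Nd4l and mt-Nd4, mt-Nd4l took 19.4% (19.1 to 19.8) and 12.4% (12.1 to 12.7), with cluster values of 17.1% to 22.2% and 11.3% to 13.5% that again did not overlap. In both pairs the upstream gene, whose last bases are printed above, took a larger part of the pair in the 5XFAD library.

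**Figure D2:**
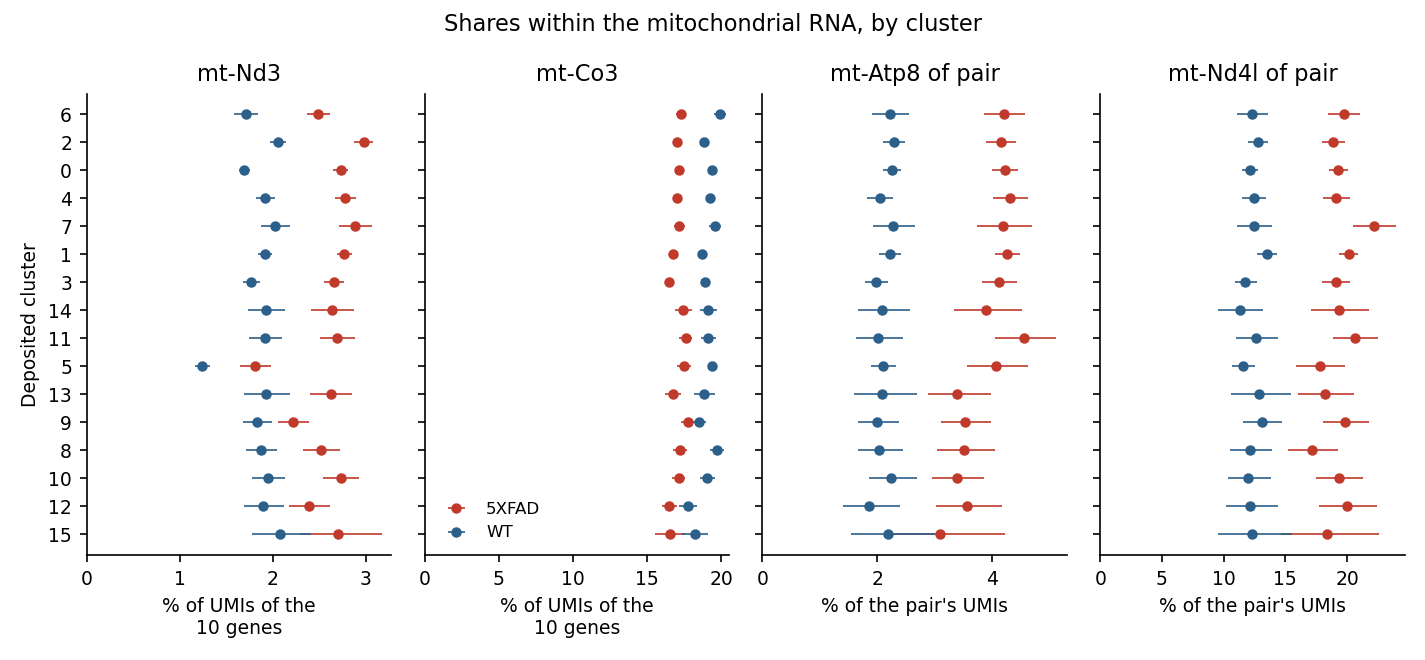
Shares within the mitochondrial RNA (x axes, %) in the 16 clusters (y axis, ordered by summed level) for 5XFAD (red) and WT (blue), with 95% counting intervals: mt-Nd3 and mt-Co3 of the UMIs of the 10 genes, mt-Atp8 of mt-Atp8 plus mt-Atp6, and mt-Nd4l of mt-Nd4l plus mt-Nd4. Red lies right of blue in 16 of 16 clusters for mt-Nd3, mt-Atp8 and mt-Nd4l, and left of it for mt-Co3.

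Annotated gene length moved with these ratios over the 13 genes. mt-Atp8 (204 bases), mt-Nd4l (297) and mt-Nd3 (348) are the shortest of the 13 genes and had the 3 highest ratios. Over the 13 genes Pearson's r between log2 length and log2 ratio was -0.74 (Spearman -0.45), and over the 10 described here -0.44 (Spearman -0.12). These describe genes of the same 2 libraries, which are not independent. For mt-Atp8 and mt-Nd4l the length is that of the gene, not of the longer RNA shared with mt-Atp6 or mt-Nd4. Among the nuclear genes tested the median log2 ratio was 0.34 for 71 genes under 400 bases, 0.0037 from 400 to 800, -0.03 from 800 to 1600, -0.18 from 1600 to 3200 and -0.30 for 1310 genes of 3200 bases or more. The part of length in the ratios of mt-Nd3, mt-Atp8 and mt-Nd4l was not tested. Nuclear copies of mitochondrial sequence, which can take up reads, were not analysed here.

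The level of the 10 genes varied more between clusters than between the libraries, with a log2 range of 0.95 over 16 clusters and 0.81 without cluster 15. It was highest in cluster 6, led by Igha, Jchain and Iglc1, with 574 UMIs per 10,000 in 5XFAD and 592 in WT. In cluster 6 all 8 B cell markers and 4 of 8 plasma cell markers were each found in at least 10% of cells. B cell-like clusters 2 (537 and 563), 0 (527 and 527) and 4 (498 and 541) followed. Cluster 7, led by the activation genes Egr1, Egr3 and Myc, had 488 and 504. The remaining B cell-like clusters had 470 and 492 (cluster 1), 466 and 482 (cluster 3), and 423 and 448 (cluster 5).

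Most T cell and innate lymphoid clusters had levels near or below that of cluster 5. Cluster 14, led by Lef1, Ms4a4b and Ms4a6b, lay above it with 454 and 467. Cluster 11, led by Cd7, Klrd1 and Ikzf2, had 429 and 446, the gamma delta T cell-like cluster 13 had 432 and 434, the ILC2-like cluster 9 had 426 and 434, and the regulatory T cell-like cluster 8 had 414 and 443. The T cell-like cluster 10 (404 and 384) and the NK or ILC1-like cluster 12 (343 and 322) were the only ones of the 16 with a summed level higher in 5XFAD at this scaling. Cluster 15, a mixed cluster led by Lyz2, Il1b and Ccl21a, had 283 and 366 from 32 and 37 cells.

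The order of the clusters was nearly the same in both libraries (Spearman 0.95 over 16 clusters), which share the clustering. In 11 of 15 neighbouring pairs the gap between clusters was within the difference between libraries. The exceptions were the steps from cluster 6 to 2, 14 to 11, 8 to 10 and 10 to 12. The log2 ratio of the summed level was below 0 in 14 clusters, with intervals that excluded 0 in 12, and it was below 0 in 9 under the median-of-ratios scaling.

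**Figure D3:**
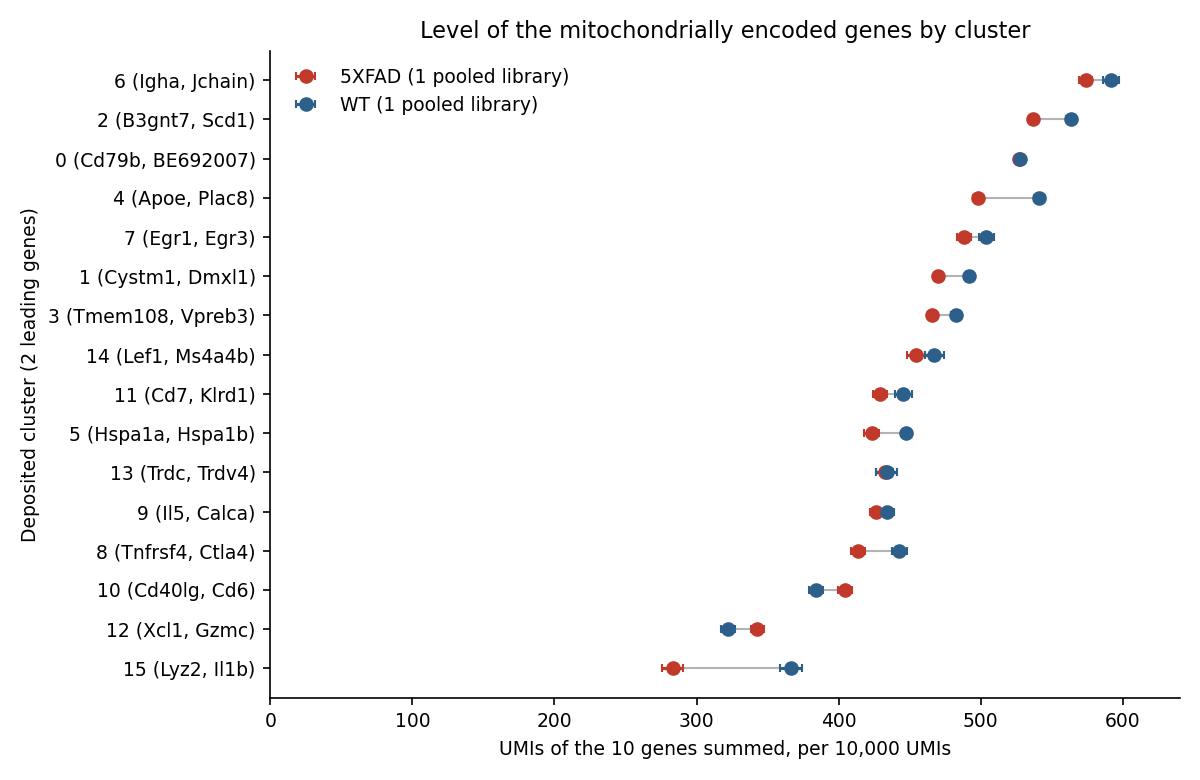
Summed level of the 10 genes (x axis, UMIs per 10,000) in 16 clusters (y axis, with 2 leading genes) in the 5XFAD and WT libraries, with exact Poisson intervals. Levels are highest in cluster 6 (574 and 592) and lowest in cluster 15 for 5XFAD (283) and in cluster 12 for WT (322); the widest gap between libraries is in cluster 15 (283 and 366).

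The genes followed the summed level over clusters to different degrees, with Pearson's r from 0.83 for mt-Nd3 to 0.99 for mt-Co3 over 16 clusters, each gene being part of the sum. mt-Nd5 differed by lineage, a pattern picked out after its values were seen. Its share of the UMIs of the 10 genes was 2.30% to 2.63% in clusters 0 to 7 of the 5XFAD library, where each of 8 B cell markers was found in at least 10% of cells, and 1.46% to 2.08% in clusters 8 to 15. In the WT library the same ranges were 1.98% to 2.28% and 1.54% to 1.90%. The values of the 2 sets of clusters thus did not overlap in either library. In WT, however, the step from 1.90% to 1.98% lay inside the counting interval of cluster 5 (1.89% to 2.08%). The ILC3-like cluster 16, outside these ranges for its 17 WT cells, went against the pattern in 5XFAD with 2.33% from 25 cells, inside the range of clusters 0 to 7, and had 1.84% in WT. Its level was highest in cluster 6, with 15.1 and 13.1 UMIs per 10,000. The nuclear genes with the most similar profile over clusters, among 6193 ranked by Pearson's r with the summed level, were Snhg17 (0.89), R3hdm1 (0.89), Tubgcp4 (0.88), Unk (0.87) and Cul4b (0.86). The points share libraries and depth, and no test applies to them.

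Per cell, the deposited percent of mitochondrial UMIs had a median of 4.84 in 5XFAD (quartiles 3.996 to 5.73) and 4.91 in WT (4.10 to 5.86). The means were 4.92 ± 1.37 and 5.04 ± 1.44 (SD over 3443 cells each, which are not replicates). The libraries overlapped throughout, and the medians differed by 0.07 percentage points. The highest cells lay at 9.997 in 5XFAD and 9.94 in WT, so a filter before deposit may bound these values and the summed levels. Cells at 8% or more were 86 in 5XFAD and 132 in WT, and those at 9% or more 25 and 49. By cluster the medians were higher in 5XFAD in 5 of 16 clusters and lower in 11, from 0.30 higher in cluster 12 (3.36 and 3.06) to 0.44 lower in cluster 4 (5.04 and 5.48). Its Spearman correlation with the UMIs of a cell was -0.07 for 5XFAD and -0.12 for WT. Within clusters the spread between cells was wide, with interquartile ranges of 1.19 to 2.81 percentage points.

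**Figure D4:**
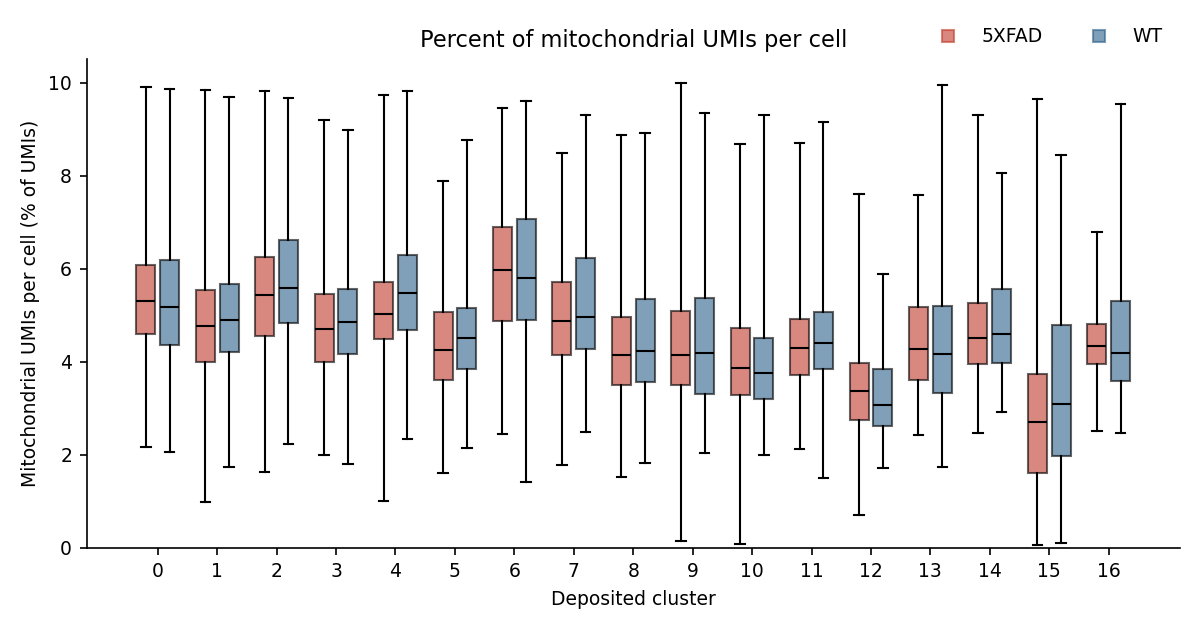
Percent of mitochondrial UMIs per cell (y axis) in the 17 deposited clusters (x axis) of the 5XFAD (red) and WT (blue) libraries; boxes are quartiles with the median, whiskers the lowest and highest cell. Every whisker ends below 10%. The lowest medians are in clusters 15 (2.70 in 5XFAD and 3.09 in WT) and 12 (3.36 and 3.06), and cluster 15 has cells near 0.

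Very few cells had almost no mitochondrial RNA: 10 of 3443 in 5XFAD and 6 of 3443 in WT had under 1%. Of these, 12 were in cluster 15, 6 from each library, and the other 4 were 5XFAD cells of clusters 1, 9, 10 and 12. They had 2 to 66 UMIs of the 10 genes out of 1956 to 10147 UMIs. Some of them carried markers of other cell types. Car1, a carbonic anhydrase of colon epithelium, was at 36.6 UMIs per 10,000 over these 16 cells, from 6 of them, and at 0.106 in the rest. Krt8, an epithelial keratin, was at 10.9, from 9 of the 16 cells, and at 0.0395 in the rest. Lyz2, a macrophage or monocyte marker, was at 16.9, from 10 of the 16 cells, and at 0.528 in the rest. The libraries differed in these markers. Epithelial markers summed to 77.7 UMIs per 10,000 in the 5XFAD cells under 1% and 17.5 in those of WT. Macrophage or monocyte markers summed to 11.7 and 108, and granulocyte markers to 0 and 150. The granulocyte genes S100a8 and S100a9 were each found in 1 cell. Of 8 stromal or endothelial markers 7 were at 0 in the 16 cells. Ptprc, which encodes CD45, was at 2.77 in them and 9.17 in the rest.

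Cluster 15 also held the largest difference between libraries in the summed level, a log2 ratio of -0.37 (-0.42 to -0.32). Its makeup differed with it. All 8 macrophage or monocyte markers were detected, at a summed 59.4 UMIs per 10,000 in 5XFAD and 94.0 in WT. The 8 epithelial markers reached 33.2 and 11.3, and the 8 stromal or endothelial markers 19.5 and 7.65, with none at 0. The sort on CD45 was meant to leave out the last 2 types. Outside cluster 15 the same lists were at 0.510 and 0.449 for macrophages, 0.235 and 0.148 for epithelium and 0.431 and 0.762 for stroma. With each cell of cluster 15 given equal weight the ratio was -0.21, and without cells under 1% or at 8% or more it was -0.28. The part of these cell types in the ratio was not tested.

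Respiratory chain subunits encoded in the nucleus were together higher in 5XFAD. All 80 listed subunits were measured, including 4 of complex II, which has no mitochondrial gene. Summed, they had 149 UMIs per 10,000 in 5XFAD and 116 in WT, a log2 ratio of 0.37 (0.36 to 0.37). Mitochondrial UMIs per nuclear subunit UMI were 3.21 in 5XFAD and 4.26 in WT, a log2 ratio of -0.41 that does not depend on the scaling. The ratio was lower in 5XFAD in 16 of 16 clusters, from -1.05 in cluster 15 to -0.21 in cluster 12. It was highest in the B cell-like cluster 2 (4.01 and 5.44) and lowest in cluster 15 for 5XFAD (1.27) and cluster 12 for WT (2.35).

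By complex, 36 of the 38 nuclear subunits of complex I were higher in 5XFAD, 7 of them by 1.5-fold or more, with a median of 0.30 beside -0.10 for all genes. These counts and those that follow stand beside 4.90% of all genes that were higher by 1.5-fold or more and 11.4% that were lower, or 7.38% and 7.81% under the median-of-ratios scaling. The all-gene values here and below are not matched for length or abundance. The median was 0.06 among the 379 genes with at least 10,000 UMIs. The part of length and abundance in the nuclear ratios was not tested. Ndufb1-ps, a small accessory subunit, was highest (0.96) and Ndufs1, which carries iron-sulphur clusters of the electron path, lowest (-0.28). The summed ratio of complex I was 0.39 (0.37 to 0.40) for the nuclear and 0.10 (0.09 to 0.11) for the 5 mitochondrial genes. In complex III all 9 nuclear subunits were higher, 2 past 1.5-fold, from 0.10 for Uqcrh to 0.72 for Uqcrb. The sums were 0.30 against 0.18 for mt-Cytb in all cells. In clusters 6, 8, 9 and 12 the ratio of mt-Cytb was not below that of the nuclear sum. There the nuclear sum was 0.136 against 0.144 for mt-Cytb in cluster 6, and 0.15 against 0.18 in cluster 9. In complex IV, 9 of 11 were higher, 1 past 1.5-fold (Cox7c, 0.63), with Cox7a2l lowest (-0.14). The sums were 0.32 against -0.14 for mt-Co1, mt-Co2 and mt-Co3. In complex V, 17 of 18 were higher and 4 past 1.5-fold, with Atp5md, a small membrane subunit, at 1.28 and Atp5c1 of the central stalk at -0.08. The sums there were 0.41 against -0.04 for mt-Atp6. Of the 4 subunits of complex II, which is wholly nuclear, 2 were higher and 2 lower (3 and 1 under the median-of-ratios scaling), from -0.33 for Sdhc to 0.57 for Sdhd.

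**Figure D5:**
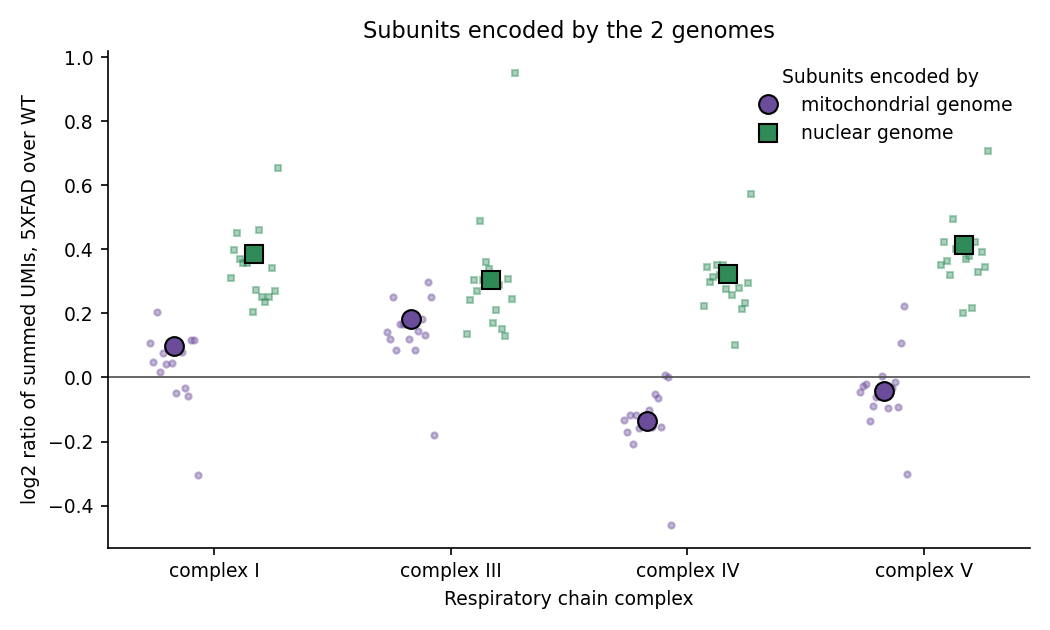
Log2 ratio of summed UMIs, 5XFAD over WT (y axis), for the subunits of 4 respiratory complexes (x axis) encoded in the mitochondrial (circles) and the nuclear genome (squares); large symbols are all cells, small ones the 16 clusters. In all cells the nuclear sum lies above the mitochondrial sum in each complex, 0.32 against -0.14 in complex IV.

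Nuclear genes that serve mitochondrial expression were also mostly higher in 5XFAD, though few passed 1.5-fold beside the 4.90% of all genes higher by that much. Of 49 large subunit genes of the mitochondrial ribosome 40 were higher (46 under the median-of-ratios scaling) and 4 past 1.5-fold (median 0.26), from -0.22 for Mrpl45 to 0.65 for Mrpl33. Of 30 small subunit genes 27 were higher and 0 past 1.5-fold (median 0.19), from -0.26 for Mrps35 to 0.55 for Mrps28. Of 29 genes of mitochondrial transcription and RNA handling 19 were higher (24 under that scaling), 1 of them past 1.5-fold (median 0.14). The highest was Prorp (0.68, 0.17 to 1.20), the nuclease that cuts tRNA 5′ ends from the long mitochondrial RNA, which rests on 88 and 53 UMIs. The lowest was Mterf2 (-0.53, -1.08 to 0.01). Among 20 tested genes of glycolysis, 13 were lower and 7 higher in 5XFAD (median -0.13 beside -0.10 for all genes, and -0.03 under the median-of-ratios scaling), from -0.63 for the lactate carrier Slc16a1 to 0.83 for Ldhb.

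Genes that respond to handling of cells differed between the libraries too. Of 28 genes of the heat shock and immediate early list 23 had lower levels in the 5XFAD library, 8 of them by 1.5-fold or more beside 11.4% of all genes, with a median of -0.36 beside -0.10 for all genes, from -1.86 for Hspa1a to 0.32 for Ier2. Cluster 5, led by such genes, held 119 cells of 5XFAD and 396 of WT, and had the lowest mt-Nd3 share in both libraries (1.80% and 1.24%). Without cluster 5 the summed ratio of the 10 genes in B cell-like cells was -0.06 in place of -0.04. The part of cell handling in the values of the 10 genes was not tested, and it cannot be told apart from genotype with 1 library each.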

How the data were processed

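Droplet-based 3′ single-cell RNA-seq (10x Genomics) was made from pooled colon CD45+ cells, 1 library per genotype. Reads were handled with Cell Ranger 6.0.1 on mm10, per the submitters' processing notes. The filters on cells were not given in the sources used here. One expression table deposited by the authors holds natural log values, ln(1 + UMIs per 10,000), and a second table, SCT, natural logs of corrected counts. Counts were recovered exactly (100% of values whole within 1e-06; sums equal to the deposited total count in 6886 of 6886 cells). The authors' deposited metadata give the percent of mitochondrial UMIs, recomputed here from 13 genes. The library named AD was taken as 5XFAD, being the only one not named WT.

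UMIs were summed per library and cell set and scaled to 10,000. Log2 ratios carry exact conditional binomial intervals and shares Clopper-Pearson intervals (Python 3.11.15, scipy 1.17.1). The code for the ratio intervals was run on Poisson counts, the model that they assume. That run cannot show how they hold with spread between cells or mice. Genes with 50 UMIs or more in the libraries together were tested against a 1.5-fold size, which is not a statistical test. Depth was 18604847 and 17939499 UMIs. B cell-like clusters had at least 6 of 8 markers in at least 10% of cells and no more markers of another class than of their own among the 10 leading genes. No doublet caller was run. Gene positions and sequences came from GENCODE vM21. Lengths of nuclear genes are medians over annotated transcripts; 99.1% of nuclear genes tested had one. The members were named with no threshold on values, but they, the gene lists and the marker lists were chosen with earlier results of these data known. Named genes are the 13 mitochondrial genes, the highest and lowest of each list, the 5 nuclear genes most like the summed level (at least 500 UMIs), the 3 leading genes of clusters, and markers of low-mitochondrial cells, chosen after their values were seen.

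Alternatives were other scalings, equal weight of cells or clusters, removal of cells with 2500 or more genes, thinning to 3000 UMIs, the SCT table, other fold sizes and removal of clusters or of cells by mitochondrial percent; removal of cluster 15 and of cells by mitochondrial percent were added after seeing the data.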

Additional observations from a re-analysis of the deposited data

Results flagged for a closer look

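The genes below had a ratio of 5XFAD over WT that lay above 0 in at least 1 cluster and below 0 in another, with counting intervals that excluded 0 in both. The difference between clusters was not tested, since each value compares 2 libraries. For the 10 genes summed, the log2 ratio was 0.0902 in the NK or ILC1-like cluster 12 and -0.37 in cluster 15. mt-Nd1 had 0.25 in cluster 12 and -0.49 in cluster 15. mt-Nd2 had 0.21 in the B cell-like cluster 0 and -0.25 in cluster 15. mt-Nd5 had 0.28 in cluster 0 and -0.58 in cluster 15, the latter from 79 and 137 UMIs. mt-Co2 had 0.12 in the T cell-like cluster 10 and -0.39 in cluster 15. mt-Cytb had 0.30 in cluster 10 and -0.18 in cluster 15. mt-Atp6 had 0.22 in cluster 12 and -0.30 in cluster 15. The low end of each was cluster 15, which had 32 and 37 cells and differed between the libraries in its epithelial and macrophage markers.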

How the results depend on the processing

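The alternatives changed sizes near 0 more than the pattern among genes. With median-of-ratios size factors, which move all genes by 0.10, the summed log2 ratio of the 10 genes turned from -0.0417 to 0.0606 in all cells and from -0.0426 to 0.0814 in B cell-like clusters, their median moved from 0.0171 to 0.119, and 1 gene passed 1.5-fold; 1 also passed the lower fold size tried. Counts of list genes past 1.5-fold higher became 4 for complex IV and for mitochondrial transcription, 3 for complex III and glycolysis, 7 for large ribosome subunits, and 1 for complex II and small ribosome subunits. mt-Nd4, mt-Co2 and mt-Atp6 changed sign under that scaling alone. Without cells of 2500 or more genes the summed ratio was -0.0462, the median 0.0118 and the ratio to nuclear subunits -0.42, which was -0.37 as a median over complexes. Thinning gave a summed ratio of -0.0466, equal weight of clusters -0.0546 with a median of -0.0110, and removal of cells under 1% or at 8% or more -0.0222. Without cluster 5 the B cell-like ratio was -0.0616. The difference in percent of mitochondrial UMIs was -0.07 by medians and -0.114 by means. The log2 range of the summed level over clusters was 0.95, 0.99 scaled by UMIs that are not mitochondrial and 0.81 without cluster 15. In single genes 87 of 117 alternatives stayed within the counting interval, in clusters 96 of 136 and in shares 17 of 20. With no filter beyond 1 UMI, 39.0% of all genes passed 1.5-fold. Where no construction of the alternative shows it, the cause was not tested. No paired analysis was possible because each genotype is 1 library. Pooling prevents any estimate of the spread between mice, and intervals therefore understate the error.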
